A study of Macaca mulatta with 24 samples.

Results

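The colon of rhesus macaques 12 days after total-body irradiation (TBI) was compared with unirradiated colon, to see what had not returned to the unirradiated level. The comparison took the 4 arrays labelled day 12, 2 after 6.7 Gy and 2 after 7.4 Gy, pooled against the 4 control arrays, which makes 8 of the 24 colon arrays. The other 16 arrays came from days 4 and 7, 4 animals for each day and dose. The animals, young adults and all male, were irradiated once over the whole body with gamma rays (cobalt-60), and the controls were sham-treated. Each array held RNA from whole colon tissue of 1 animal, without pooling. The controls carry the label day 4, and the same 4 animals served every day. No unirradiated animal of day 12 was measured, so time since the start of the study and irradiation cannot be told apart. A text label of the series gives another last day than the sample labels, which were followed here.

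The colon lining is a single layer of cells renewed from stem cells at the base of crypts. Radiation kills dividing crypt cells, lymphocytes and blood cell precursors, and damaged DNA switches on p53, a transcription factor whose targets stop the cell cycle, repair DNA or lead to cell death. As the crypts regrow, absorptive cells return to the surface, while circulating red cells and lymphocytes depend on the slower recovery of the bone marrow and lymphoid organs.

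Values are log2 signals relative to the 75th percentile of the same array, so a difference of 1 is 2-fold. The 75th percentile lay at 558 to 971 intensity units over the 24 arrays, and each array had 66.8% to 85.0% of its probes well above background, by the flag of the scanner software. Correlations across probes, which are not independent replicates, were 0.973 to 0.983 among the controls, 0.975 to 0.984 among the day 12 arrays and 0.970 to 0.982 between them. Of the 8 markers of colon epithelium, 6 were found on the array by name, and all 6 were well above background in all 8 arrays. One day 12 array, 6.7 Gy animal 1, had 712 spots marked as outliers, against 24 to 153 on the others. All controls lay in the first position of a slide and all day 12 arrays in the fourth, so position and irradiation cannot be told apart in this comparison. All day 12 arrays and controls 3 and 4 were scanned in one session, and controls 1 and 2 in another.

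On day 12, 25 of 38214 probes (0.0654%) were called in limma, where called means that the p adjusted over all probes was under 0.05 and the difference 2-fold or more. Of these, 13 were higher (0.034%) and 12 lower (0.0314%) than in the controls. In all 25 the 4 day 12 arrays lay on one side of the 4 control arrays, which was also so for 2.5% of all probes in the higher and 2.82% in the lower direction. A gene symbol was known for 15 of the 25 probes. When each gene was represented by its brightest probe, 10 of 14767 genes (0.0677%) were called: LOC721445, ANKRD65, PDK4, ABCC2 and DHRS13 were higher, and HBB, SERPINA2, CD96, MSN and KBTBD6 were lower. Against the same controls, the 8 arrays of day 7 gave 289 called probes (0.756%), 95 of them higher (0.249%) and 194 lower (0.508%). The 8 arrays of day 4 gave 2200 (5.76%), with 1045 higher (2.73%) and 1155 lower (3.02%). These counts are not on equal terms, since day 12 had 4 arrays and the earlier days 8 each. At a limma unadjusted p under 0.05 and 2-fold, day 12 gave 591 probes (1.55%), day 7 gave 944 (2.47%) and day 4 gave 2568 (6.72%). With spike-in scaling, 21 probes were called higher on day 12 and 6 lower. Under the other methods and scalings that kept the threshold, 0 to 39 probes were called on day 12. The 0 came from limma on the 8 arrays compared, where 570 probes had an unadjusted p under 0.05 and a 2-fold difference.

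**Figure D1:**
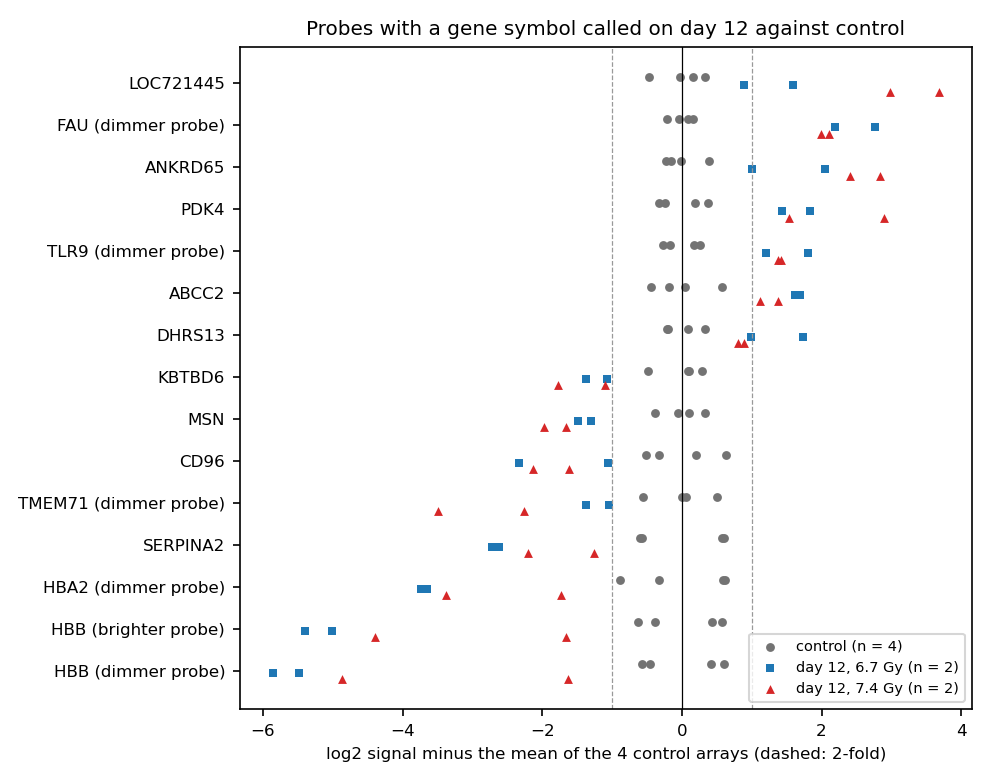
Each line is 1 of the 15 called probes with a gene symbol, and each point is the log2 signal of 1 array minus the mean of the 4 controls: controls (grey circles), 2 day 12 arrays at 6.7 Gy (blue squares) and 2 at 7.4 Gy (red triangles). LOC721445 and ANKRD65 were not well above background on any control array and are plotted at their measured signal. No day 12 point lies among the control points of its line, and in both HBB probes 1 of the 7.4-Gy animals lies nearer to the controls than the other 3 day 12 animals.

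A probe that misses the threshold is not thereby shown to be at the control level. The 95% interval of the day 12 difference lay wholly within 2-fold for 70.0% of the probes and 73.0% of the genes. For 13.2% of the probes the interval was wider than 2-fold on either side of its centre. The median half-width was 0.50 on the log2 scale.

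Red cell genes gave the 3 largest decreases among the called probes, 2 probes of HBB and 1 of HBA2. HBB, the beta chain of adult haemoglobin, was at 2.42, 2.17, 3.23 and 3.37 in the controls, at -2.21 and -2.60 in the 6.7-Gy animals and at -1.59 and 1.14 in the 7.4-Gy animals (log2 signal). The day 12 animals were all below the controls, and 7.4 Gy animal 2 lay between the controls and the other 3. HBB was 17.3-fold lower on day 12, a log2 difference of -4.11 ± 0.65 (SE, n = 4 and 4; limma adjusted p = 0.0231). A second HBB probe differed by -4.46 (limma adjusted p = 0.0287). Side by side and against the same controls, HBB differed by -5.95 on day 4, by -7.47 on day 7 and by -4.11 on day 12. In the contrast of day 12 with day 7 of the same fit, HBB was higher on day 12 by 3.36 (limma adjusted p = 0.0146).

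The alpha chain gene HBA2 gave different values on 2 probes. The dimmer probe was at 2.01, 1.45, 2.97 and 2.93 in the controls, at -1.39 and -1.31 in the 6.7-Gy animals and at -1.04 and 0.61 in the 7.4-Gy animals. The groups did not overlap, and the order of the 4 day 12 animals had the same animal, 7.4 Gy animal 2, on top. It fell by 3.12 (limma adjusted p = 0.000555), the lowest adjusted p of the comparison. The brighter HBA2 probe lay at 7.03 or above in the controls and between 7.01 and 7.27 on day 12, a difference of -0.54 with overlapping groups (limma adjusted p = 0.298). Of 15 tested red cell genes HBB alone was called by its brightest probe (0.0339% of all genes were called lower). The list had a median of -0.19 against 0.00 over all genes, which became 0.13 with normexp background correction and 0.00 with spike-in scaling. ALAS2, the first enzyme of haem synthesis in red cell precursors, was well above background in 3 controls and in no day 12 array, and was at least 1.41-fold lower on day 12, with overlapping groups (limma adjusted p = 0.274). It was named after its value was seen. In whole tissue, fewer cells of a type and less RNA in each cell cannot be told apart.

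SERPINA2, an alpha-1-antitrypsin-like gene of the serpin family, fell with the smallest adjusted p among the 10 genes. The controls were at 0.63, 0.65, 1.79 and 1.82, the 6.7-Gy animals at -1.40 and -1.49 and the 7.4-Gy animals at -0.99 and -0.04. The groups did not overlap, and the 2 controls of each scan session lay close together, at means of 0.64 and 1.81. The difference was -2.20 ± 0.27 (SE, n = 4 and 4; limma adjusted p = 0.00214), or 4.60-fold. It was -2.98 on day 4 and -2.97 on day 7 against the same controls, and the difference between days 12 and 7 was 0.77 (limma adjusted p = 0.236). In the second scan session alone, SERPINA2 differed by -2.79 and the dimmer HBA2 probe by -3.73, and these 2 probes were the ones called there. On slides 3 and 4, which carried a control and a 6.7-Gy day 12 array each, SERPINA2 was lower on day 12 by -3.19 and -3.31.

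PDK4 rose. It encodes a kinase that switches off pyruvate dehydrogenase and so spares glucose when fatty acids are burned. It was at -0.38, -0.81, -0.19 and -0.89 in the controls, at 0.87 and 1.27 after 6.7 Gy and at 0.97 and 2.34 after 7.4 Gy. No day 12 value lay among the controls, and the difference was 1.92 ± 0.31 (SE, n = 4 and 4; limma adjusted p = 0.0287), or 3.80-fold. On days 4 and 7 it was 1.61 and 1.31 against the same controls, and days 12 and 7 differed by 0.61 (limma adjusted p = 0.475). A dimmer PDK4 probe differed by 1.82 with overlapping groups (limma adjusted p = 0.179). PDK4 was the only called gene of the 24 tested PPAR target and fatty acid oxidation genes (0.0339% of all genes were called higher), and the list had a median of 0.27.

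ANKRD65, an ankyrin repeat gene, was at -6.44, -7.06, -6.99 and -6.85 in the controls, all 4 below the level called well above background. It was at -4.79 and -5.84 after 6.7 Gy and at -4.43 and -4.00 after 7.4 Gy, and 1 of these 4 arrays was well above background. The groups did not overlap, and ANKRD65 was at least 1.84-fold higher on day 12 (limma adjusted p = 0.0438). On all 16 arrays of days 4 and 7 it was well above background, with mean log2 signals of -1.94 after 6.7 Gy and -1.17 after 7.4 Gy on day 4 and of -2.68 and -2.96 on day 7. It was lower on day 12 than on day 7 by -1.94 (limma adjusted p = 0.0243). ANKRD65 lost its call when any 1 of the 8 arrays was left out.

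**Figure D2:**
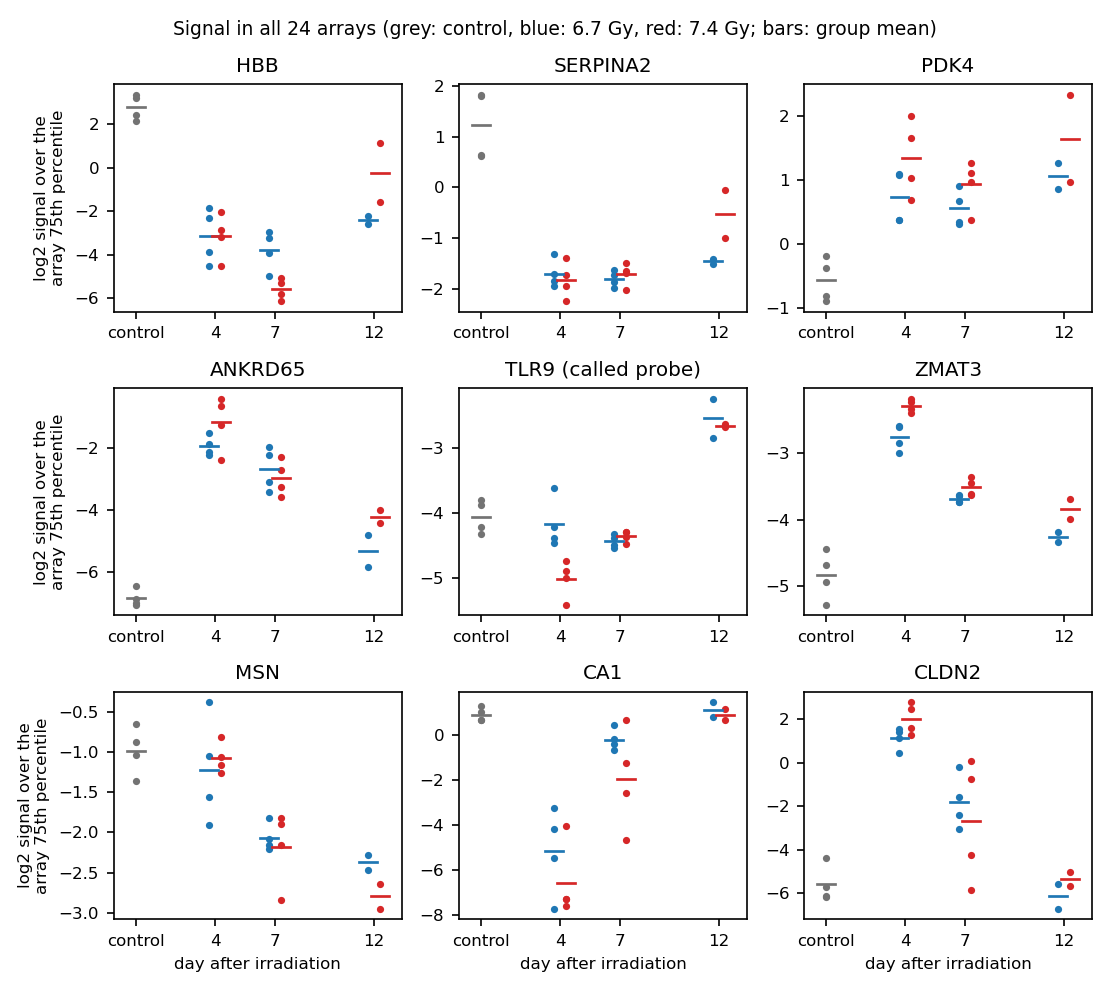
Log2 signal over the 75th percentile of the array, against the day after irradiation, for 9 probes in all 24 arrays: controls (grey, at the left), 6.7 Gy (blue) and 7.4 Gy (red), with a bar at each group mean. HBB and SERPINA2 stay below the controls on all 3 days, PDK4 and ANKRD65 above them, the called TLR9 probe is high on day 12 and not on days 4 and 7, and CA1 and CLDN2 overlap the controls on day 12, with 1 day 12 array of each outside the control range.

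Several of the higher probes were near the controls on days 4 and 7 and high on day 12. ABCC2, a pump that exports conjugated drugs and bile pigments from cells, was at -3.22, -2.97, -2.74 and -2.20 in the controls, at -1.09 and -1.16 after 6.7 Gy and at -1.41 and -1.66 after 7.4 Gy. The difference was 1.45 ± 0.27 (SE, n = 4 and 4; limma adjusted p = 0.0438), with no overlap. On days 4 and 7 it was -0.68 and -0.12. A second ABCC2 probe, well above background on 1 control array and on no day 12 array, differed by -0.61 (limma adjusted p = 0.9). DHRS13, a short-chain dehydrogenase, was at -0.52 to 0.02 in the controls and at 0.49 to 1.43 on day 12, a difference of 1.11 (limma adjusted p = 0.0438) against -0.21 and 0.19 on days 4 and 7. LOC721445, annotated as an olfactory receptor 1E2-like gene, lay at -8.23 to -7.43 in the controls, none well above background. It was at -6.88 and -6.17 after 6.7 Gy and at -4.08 and -4.79 after 7.4 Gy, which is at least 1.12-fold higher (limma adjusted p = 0.0287). In the contrast with day 7, ABCC2 was higher on day 12 by 1.57 (limma adjusted p = 0.00705). LOC721445, which was not well above background on any day 7 array, was called higher too (limma adjusted p = 0.0119). It passed the filter through 3 day 12 arrays alone, so the filter favoured its calls on day 12. Of all genes 0.088% were called higher than on day 7, and DHRS13 was higher by 0.92, under 2-fold (limma adjusted p = 0.0488).

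TLR9, FAU and TMEM71 were called only by a probe that was not their brightest, so the rule for named genes did not select them and they were chosen after their values were seen. The called probe of TLR9, a receptor for unmethylated bacterial DNA, lay at -4.33 to -3.80 in the controls and at -2.85, -2.24, -2.68 and -2.64 on day 12. It differed by 1.45 ± 0.19 (SE, n = 4 and 4; limma adjusted p = 0.00221), and by -0.53 and -0.34 on days 4 and 7. The 3 other TLR9 probes differed by -0.34, -0.17 and -0.05 on day 12, and none was called. Against day 7 the called probe was higher by 1.80 (limma adjusted p = 2.35e-05). The called FAU probe was at -3.24 to -2.87 in the controls and at -1.04 to -0.26 on day 12, a difference of 2.26 (limma adjusted p = 0.0438). Its description in the deposited table names PSG5, and the brightest probe of FAU, a ribosomal protein gene, differed by 0.09 over the 3 arrays of each group that had a value. For TMEM71 the called probe differed by -2.04 (limma adjusted p = 0.0287) and the brighter one by -0.13. 

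Of the 10 called probes without a symbol, 6 were higher and 4 lower. Probe A_01_P1713282 was not well above background on any control array, at -7.41 to -6.03. It lay at -4.61 to -3.47 on day 12, at least 2.59-fold higher (limma adjusted p = 0.0181). It entered through 2 day 12 arrays and 1 day 4 array well above background. Probe A_01_P1808151, called lower, entered through 2 control arrays alone. Probe A_01_P009806 lay at -2.16 to -1.87 in the controls and at -0.71 to 0.04 on day 12, a difference of 1.65 (limma adjusted p = 0.00221). It differed by 0.11 on day 4 and 0.14 on day 7. Of the 4 arrays of day 7 after 7.4 Gy, 2 lay in the fourth slide position, like the day 12 arrays, and 2 in the position before it. Their means there and in the position before were -4.34 and -4.39 for the called TLR9 probe, -1.94 and -1.99 for A_01_P009806 and -3.06 and -2.06 for the called FAU probe. The 13 probes called higher differed, the fourth position minus the other, by -0.997 (the called FAU probe) to 0.39 (ABCC2). These shifts went in both directions, at 0.32 for A_01_P1803701 and -0.37 for PDK4. The 12 probes called lower differed, the fourth position minus the other, by -0.55 to 0.29. The pairs also differed in slide and scan session.

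MSN encodes moesin and EZR encodes ezrin, related proteins that tie the cell membrane to actin, EZR in the brush border of epithelium and MSN in leukocytes and endothelium. MSN was at -0.65, -1.36, -1.04 and -0.88 in the controls, at -2.28 and -2.47 after 6.7 Gy and at -2.95 and -2.64 after 7.4 Gy. It fell by 1.60 (limma adjusted p = 0.0287), with no overlap. MSN lost its call with normexp and when any 1 array other than control 2 was left out. Its difference was -0.16 on day 4 and -1.14 on day 7, and it was lower on day 12 than on day 4 by -1.44 (limma adjusted p = 0.000255). EZR lay at 1.34 to 1.66 in the controls and at 0.94, 1.17, 0.23 and 0.36 on day 12. Its difference of -0.83 passed the adjusted p (limma, 0.0438) but was under 2-fold, with no overlap. KBTBD6, an adaptor of a ubiquitin ligase, was at -4.22 to -3.44 in the controls and at -5.51 to -4.81 on day 12, a difference of -1.33 (limma adjusted p = 0.0438). KBTBD6 differed by -0.06 with normexp and the called TMEM71 probe by -0.44. Among the higher probes, LOC721445, ANKRD65 and the called TLR9 probe also lost their call with normexp, while PDK4, ABCC2 and DHRS13 kept it.

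CD96, a receptor of T and natural killer cells, was the only lymphocyte gene called. It was at -4.79, -3.84, -4.98 and -4.27 in the controls, at -6.81 and -5.52 after 6.7 Gy and at -6.60 and -6.09 after 7.4 Gy. All 4 controls and 1 of the 4 day 12 arrays were well above background. The difference was -1.78 ± 0.34 (SE, n = 4 and 4; limma adjusted p = 0.0438), but -0.07 with normexp background correction (limma adjusted p = 0.871). Leaving out any 1 array other than 6.7 Gy animal 2 ended the call.

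All 28 tested T lymphocyte genes had a negative difference on day 12, against 49.8% of all genes, with a median of -0.70 and a range of -1.83 to -0.02. Of these 28, CD96 was called (1 of 28, against 0.0339% of all genes called lower), 3 had groups that did not overlap (2.78% of all genes in that direction), and 7 had an interval inside 2-fold. The controls did not form one level: the median over the list was -0.79 in control 1, 0.37 in control 2, 0.04 in control 3 and 0.15 in control 4, relative to their mean. The day 12 arrays lay at -0.79, -0.76, -0.48 and -0.62, below controls 2 to 4 and level with or above control 1. CD3E, a subunit of the T cell receptor complex, was chosen after its values were seen. It lay at -0.37 in control 1, 0.93 to 1.16 in the other controls and -0.85 to -0.01 on day 12 (difference -1.19, limma adjusted p = 0.255). Without control 1 the list median was -0.92. With normexp it was -0.21, where the median of all probes moved to 0.16.

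The cytotoxic and natural killer list had a median of -0.69, with 19 of 20 genes negative and none called. Its arrays lay at -0.41, -0.79, -0.40 and -0.80 on day 12 and at -0.22 to 0.49 in the controls, with no overlap of the list medians. CTSW, a protease of cytotoxic cells, had the lowest p of the list, at -4.41 to -2.88 in the controls and -5.47 to -4.50 on day 12 (difference -1.48, limma adjusted p = 0.2). The median was -0.18 with normexp. GZMK, a granzyme, was at -2.54 to -1.18 in the controls and at -3.77 to -2.04 on day 12 and did not pass (difference -0.74, limma adjusted p = 0.782). CLEC9A, a receptor of dendritic cells that take up dead cells, differed by -2.15 on day 4, -4.06 on day 7 and -1.33 on day 12, when the groups overlapped (limma adjusted p = 0.621). RGS13, a gene of germinal centre B cells, spanned -3.89 to -0.37 in the controls and -4.17 to -0.75 on day 12, and its interval of -2.35 to 1.06 leaves both directions.

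B lymphocyte genes had a median of -0.16, but the controls alone spanned -0.80 to 0.84 in the list median, wider than the day 12 arrays. In this list TNFRSF13C, the receptor for the B cell survival factor BAFF, had the lowest p, at -5.66 to -4.88 in the controls and -4.65 to -3.70 on day 12 (difference 1.12, limma adjusted p = 0.252). Plasma cell genes had a median of 0.31, and the plasma cell regulator PRDM1 had their lowest p (difference 0.60, limma adjusted p = 0.404). The B lymphocyte median became 0.14 without control 4 and 0.03 with spike-in scaling. None of the genes tested for B cells, plasma cells, dendritic cells, macrophages or granulocytes was called.

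**Figure D3:**
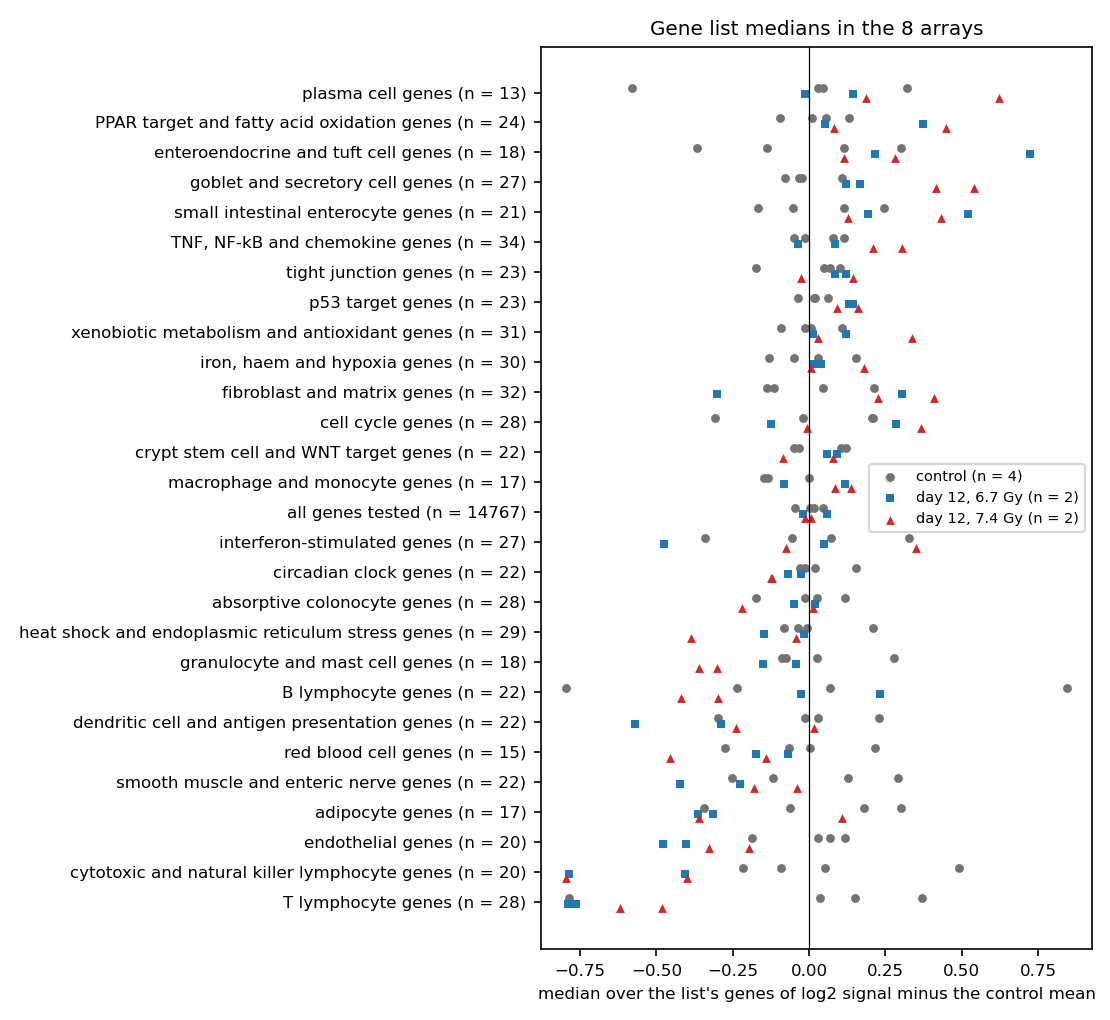
For each of 27 gene lists and for all genes tested, the median over its genes of the log2 signal minus the control mean, with 1 point for each control array (grey circles) and each day 12 array at 6.7 Gy (blue squares) and 7.4 Gy (red triangles). Lists run from the highest to the lowest median difference, and the T lymphocyte point of control 1 lies with the day 12 points.

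Among 23 tested p53 targets, 19 were higher on day 12 and 4 lower, and 4 had day 12 arrays all above the controls (2.84% of all genes in that direction), but none was called. The list median was 0.09, at 0.09 to 0.16 in the day 12 arrays and -0.04 to 0.06 in the controls. It was 0.77 on day 4 and 0.34 on day 7 against the same controls. ZMAT3, an RNA-binding p53 target, was at -5.29 to -4.45 in the controls and at -4.19, -4.34, -3.99 and -3.69 on day 12. The groups did not overlap, and the difference of 0.79 ± 0.15 (SE, n = 4 and 4) passed the adjusted p (limma, 0.0438) but not 2-fold. Against controls 3 and 4 alone, scanned in the same session as the day 12 arrays, ZMAT3 differed by 0.52. On slides 3 and 4 the 6.7-Gy day 12 array exceeded the control by 0.49 and 0.12. EDA2R, a receptor of the TNF receptor family induced by p53, was at -2.02 to -1.32 in the controls and -0.96 to -0.34 on day 12, again with no overlap (difference 1.02 ± 0.23, SE, limma adjusted p = 0.131). The other 2 without overlap, named after their values were seen, were GDF15, a stress hormone (difference 1.49, limma adjusted p = 0.222), and DDB2, which recognises damaged DNA (difference 0.58, limma adjusted p = 0.298). Against day 4, ZMAT3 was lower on day 12 by -1.53 and EDA2R by -1.55, both called, and 8 of the 23 targets were called lower (3.6% of all genes). CDKN1A, the inhibitor of cyclin-dependent kinases, differed by 0.21 on day 12 with an interval of -0.26 to 0.68. MDM2, the ubiquitin ligase that degrades p53, differed by 0.35 with an interval of 0.04 to 0.67. Both intervals lie inside 2-fold.

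With both doses pooled, no absorptive colonocyte gene was called against control among 28 tested. With the 7.4-Gy pair alone, 1 of the 28 was called lower, and it is the same gene as the only 1 called lower among all 14767. The pooled interval lay inside 2-fold for 9 of the 28 (32.1%), against 73.0% of all genes. The list median was -0.05, which became 0.14 with spike-in scaling and 0.01 with normexp. Against day 4, 19 of the 28 were called higher on day 12 (3.74% of all genes). CA1, the carbonic anhydrase of surface colonocytes, was at 1.03, 0.67, 1.31 and 0.67 in the controls and at 0.82, 1.47, 0.69 and 1.15 on day 12. The groups overlapped, with 1 day 12 array above the highest control, and differences of -6.76 on day 4, -1.98 on day 7 and 0.12 on day 12. CHP2, a cofactor of sodium-proton exchangers, differed by -4.90, -1.04 and 0.10 on the same days. CLDN8, a claudin that seals the paracellular path in the distal colon, differed by -3.15, -0.04 and 0.30. CLDN2, a pore-forming claudin, was at -6.16 to -4.38 in the controls and -6.71 to -5.04 on day 12, with differences of 7.17, 3.34 and -0.16. The 95% intervals on day 12 were still wide, -1.91 to 2.14 for CA1 and -2.10 to 1.79 for CLDN2. They take 1 spread per probe from all 7 groups, and for CA1 the SD was 0.31 in the controls and 0.35 on day 12.

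**Figure D4:**
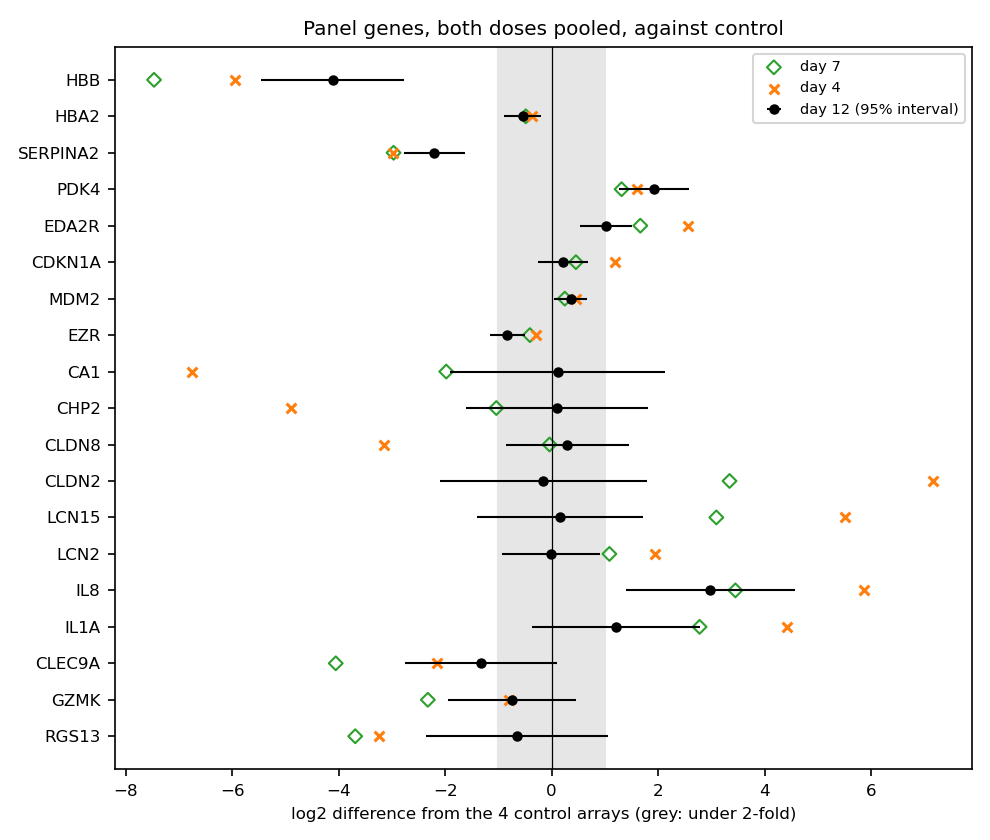
Log2 difference from the 4 controls for 19 of the 20 panel genes (without MMP7) with both doses pooled: day 12 with its 95% interval (black), day 7 (green diamonds) and day 4 (orange crosses), all against the same controls, with the range under 2-fold in grey. The intervals of HBB, SERPINA2, PDK4 and IL8 lie outside the grey range. Those of CA1, CHP2, CLDN2, LCN15 and RGS13 reach past it on both sides.

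In the TNF, NF-kB and chemokine list, 21 of 34 genes were called lower on day 12 than on day 4 (3.6% of all genes), and none was called against control (median 0.14). IL8, the neutrophil-attracting chemokine also named CXCL8, was at -5.48, -5.95, -4.78 and -7.91 in the controls, 1 of them well above background. It was at -2.40, -3.79, -2.76 and -3.23 on day 12, all well above background and all higher. The difference was 2.98 with an interval of 1.39 to 4.57 and missed the adjusted threshold (limma, 0.19). A second IL8 probe, well above background on all 8 arrays, lay at -5.55 to -4.99 in the controls and at -4.06 to -3.29 on day 12, 2.83-fold higher, with an interval of 0.32 to 2.69 on the log2 scale (limma adjusted p = 0.427). Another differed by 1.26 with overlapping groups (limma adjusted p = 0.581). IL1A, an inflammatory cytokine, differed by 1.21 with overlapping groups (limma adjusted p = 0.701), and a second probe by 0.23 (adjusted p = 0.962). LCN2, which withholds iron from bacteria, differed by -0.02 with an interval of -0.94 to 0.90. A dimmer LCN2 probe, well above background on all 8 arrays, differed by 0.55 with a wider interval of -1.08 to 2.18. That probe had differed by 5.78 on day 4 and by 3.98 on day 7. LCN15, another lipocalin, was near background in both groups and differed by 0.16. MMP7, a matrix protease, was not well above background on any of the 8 arrays, so no fold is given.

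Goblet and secretory genes had a median of 0.22, with 19 of 27 genes positive, 3 without overlap (2.84% of all genes in that direction) and none called, and the 2 7.4-Gy arrays at 0.54 and 0.42 were above the 6.7-Gy arrays at 0.12 and 0.17. Their lowest p belonged to SPINK4, a goblet cell product that was well above background on no control and 1 day 12 array. MUC2, the main colonic mucin, was at 4.09 to 4.25 in the controls and at 4.79 to 5.04 on day 12, a difference of 0.71 (limma adjusted p = 0.557). MUC2 was chosen after its values were seen, for groups that did not overlap. Enteroendocrine and tuft cell genes had a median of 0.23. The gene of lowest p there was NTS, the neurotensin gene, which was well above background on no control and 1 day 12 array. The 21 small intestinal enterocyte genes had a median of 0.21. The lowest p among them belonged to APOC3. APOC3, an apolipoprotein of fat transport, was at -4.22 to -3.70 in the controls and -3.36 to -2.47 on day 12 (difference 1.27 ± 0.26, SE, limma adjusted p = 0.0789). It had differed by -0.46 on day 4 and 0.04 on day 7.

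Cell cycle genes had a median of 0.06, with 25 of 28 intervals inside 2-fold and none called. TYMS, which makes thymidylate for DNA synthesis, had the lowest p at 0.52 (limma adjusted p = 0.586). Crypt stem cell and WNT target genes had a median of 0.03, led by the crypt receptor EPHB3 at 0.54 (limma adjusted p = 0.393), and tight junction genes one of 0.13, with 18 of 23 intervals inside 2-fold and none called. Fibroblast and matrix genes had a median of 0.06. Their lowest p belonged to the matrix protease MMP9, at 1.02 (limma adjusted p = 0.316), while the largest difference in the list was 2.93.

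Endothelial genes had a median of -0.36, with 17 of 20 negative. The list medians of the day 12 arrays, -0.48 to -0.20, lay below those of the controls, -0.19 to 0.12. EGFL7, a factor secreted by vessels, had the lowest p of the list. It was at 1.82 to 2.17 in the controls and 1.27 to 1.55 on day 12 with no overlap (difference -0.62, limma adjusted p = 0.263). No endothelial gene was called, and the median was -0.05 with normexp. Smooth muscle and enteric nerve genes had a median of -0.20, led in the other direction by the neuronal gene STMN2 at 0.68 (limma adjusted p = 0.444). Adipocyte genes had a median of -0.25, where THRSP, a regulator of fat synthesis, differed by -2.14 (limma adjusted p = 0.135), well above background on 3 controls and 1 day 12 array.

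The lists of dendritic, macrophage, granulocyte and mast cell, interferon, clock, iron, xenobiotic and heat shock genes held no called gene and had medians between -0.17 and 0.09. Spike-in scaling, which moved the median of all probes by 0.20, or normexp changed the sign of the dendritic, granulocyte, interferon, clock and heat shock medians. Among the genes with the lowest p of these lists were FCER1A, the IgE receptor chain of mast and dendritic cells (-1.62, limma adjusted p = 0.229), and HDC, which makes histamine (-0.92, adjusted p = 0.408). FCGR3, an IgG receptor of macrophages and natural killer cells, differed by 1.03 (limma adjusted p = 0.365). The heat shock gene HSPA6 differed by -1.08 (limma adjusted p = 0.205) and the clock receptor gene RORA by -0.76 (adjusted p = 0.242). The transferrin receptor TFRC differed by 0.62 (limma adjusted p = 0.396) and the extracellular superoxide dismutase SOD3 by -0.51 (adjusted p = 0.313).

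The 2 doses were pooled, and their difference was tested in the same fit. limma called no probe between 7.4 and 6.7 Gy on day 12, with 438 at an unadjusted p under 0.05 and at least 2-fold and a lowest adjusted p of 0.523. With normexp 43 probes were called between the doses. None of the 25 pooled calls had doses on opposite sides of the controls. HBB was higher at 7.4 Gy by 2.18 (interval 0.27 to 4.09) and SERPINA2 by 0.93 (0.13 to 1.73), both from 2 animals a dose. LOC721445 differed by 2.09 (0.94 to 3.24) and the called TMEM71 probe by -1.67 (-2.70 to -0.64). These intervals are not adjusted for the number of probes, and none of these differences between doses was called. Against the controls, the 6.7-Gy pair alone gave 7 called probes (0.0183%), 3 higher (0.00785%) and 4 lower (0.0105%). The 7.4-Gy pair gave 10 (0.0262%), 4 higher (0.0105%) and 6 lower (0.0157%).

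Day 12 was also set against the earlier irradiated animals in the fit of all 24 arrays. Against day 7, 41 probes were called (0.107%), 26 higher (0.068%) and 15 lower (0.0393%), which became 40 higher and 5 lower with spike-in scaling. In a fit of the day 7 and day 12 arrays alone, 11 were called, all higher. Against day 4 there were 2479 (6.49%), of which 1366 were higher (3.57%) and 1113 lower (2.91%).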

How the data were processed

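Gene expression was measured on 1-colour (Cy3) 44 K rhesus arrays. Per the file headers, the authors extracted each intensity with Feature Extraction 11.0.1.1, which subtracts background; the deposited normalized log2 values of the authors (each array shifted, each probe centred) were used as an alternative. Here control spots and outlier spots were left out, spots of a probe were averaged, and log2 processed signal minus the array's 75th percentile was analysed. Probes well above background on at least 2 of 24 arrays entered: 38234 passed, 38214 of which had values in every group of the fit. No array had a saturated probe. Names came from the deposited table for 18640 probes and from RefSeq by accession for 3268; 1887 had only a LOC number and 19808 none. The probe with the highest mean over 24 arrays stood for a gene. No sequences are given.

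limma 3.58.1 under R 4.3.3 fitted 1 mean for each of 7 groups to all 24 arrays (lmFit, contrasts.fit, eBayes). The p-values were two-sided, with Benjamini-Hochberg adjustment over all probes, and the fit was tested on simulated data. Called means an adjusted p under 0.05 and at least 2-fold. Folds written as at least are bounds, for probes below that flag on all arrays of one group. There the dim group was set, array by array, to the lowest flagged signal of the array, or to the probe's own signal if larger, before the means were compared.

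The comparison, the 27 gene lists (805 genes) and the panel were chosen with earlier results of these data known, and no list test was run. Genes are named if called (up to 12 a direction), if called in a list or, with none called, of the lowest p there, or if on a panel of 20; others are said to be chosen after their values were seen. The gene of lowest p in 1 list is not reported here. Alternatives covered background correction, scaling, filters, tests, blocks, thresholds and leaving out each array; 1, the second scan session alone, was added after seeing the data. The number of animals limits the precision.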

Additional observations from a re-analysis of the deposited data

Results flagged for a closer look

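One of 184 groups of 4 arrays checked had a value far from its neighbours by Dixon's test, which flags about 1 in 20 by chance. The median over the adipocyte genes lay at 0.107 in 7.4 Gy animal 2 on day 12, while the other 3 day 12 animals lay between -0.363 and -0.314 relative to the control mean. The median day 12 difference of the list was -0.25 with that animal and -0.39 without it. It was -0.04 without 7.4 Gy animal 1, -0.15 without control 1 and -0.49 without control 3.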

How the results depend on the processing

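The 25 calls against control became 21 to 31 with other background correction, scaling, the authors' normalized values, the stricter filter, moderated variances with trend, and random blocks for slide or position, and 37 with no fold threshold. They became 15 with no filter, 39 with array weights, 6 with slide as a fixed block, 7 with scan session as a block, 38 at an adjusted p under 0.1, 1 with the methods' t-test after adjustment, 417 with it before adjustment, and 0 in limma on the 8 arrays alone, where 570 probes had an unadjusted p under 0.05 and 2-fold. The second scan session alone gave 2. Leaving out 1 array gave 6 to 19 calls: 6 without control 4 or without 6.7 Gy animal 1, 9 without control 3, 10 without 7.4 Gy animal 2, 15 without control 2, 16 without 6.7 Gy animal 2 or 7.4 Gy animal 1, and 19 without control 1. Between doses, 43 were called with normexp, 177 with the unadjusted t-test, and 1 to 21 with 1 array left out. Against day 7, the 41 calls became 26 with no filter, 11 with only the arrays compared, 8 and 502 with the t-test after and before adjustment, 64 with trend, 109 with weights, 27 and 74 with slide as a fixed and a random block, 18 with scan session, 104 at an adjusted p under 0.1, and 15 to 37 with 1 array left out. Against day 4, the count was 1300 with normexp and 9116 with no fold threshold. The cause of these changes was not tested.

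With the replicate number as a block, 10 probes were called against control, all among the 25, and 13 against day 7. Same-numbered controls and 6.7-Gy animals of day 12 correlated at -0.01 and -0.12 in their deviations from the group mean. With the 7.4-Gy animals the values were 0.01 and -0.08. On shared slides, 6.7 Gy animal 1 with control 3 gave 0.12 and 6.7 Gy animal 2 with control 4 gave 0.22. In a group of 2 animals the deviations mirror each other, so these values cannot decide whether the numbers pair the animals. Slide position as a fixed block could not be estimated.

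Over 25 alternatives SERPINA2 and the dimmer HBA2 probe each lost their call under 2, the 8 arrays alone and the adjusted t-test. TLR9's called probe lost it under 4, HBB under 8, PDK4 under 10, MSN under 11, ABCC2, DHRS13 and LOC721445 under 14, and ANKRD65, CD96 and KBTBD6 under 16. None of the 25 called probes changed direction under the alternatives run. Spike-in scaling moved the median of all probes by 0.20 and normexp by 0.16. The T lymphocyte median stayed negative in 15 of 15 alternatives, from -0.92 to -0.21. With 4 arrays a side, differences under 2-fold in probes with wide intervals were not detectable.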

Other observations

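OAS1, an interferon-induced enzyme that senses double-stranded RNA, had the lowest p of the interferon-stimulated genes. It lay at 3.47 to 4.39 in the controls. On day 12 it was at 3.95 and 2.82 in 6.7 Gy animal 1 and 7.4 Gy animal 2, and at -0.24 and 0.41 in the other 2 (difference -2.14, limma adjusted p = 0.583). A second OAS1 probe had the same order, at 1.54 and 0.44 against -2.61 and -2.20. MMP12 and CYP1A1 were chosen after their values were seen. MMP12, the macrophage elastase, lay at -4.42 to -2.62 in the controls and at -1.39 to 0.64 on day 12, with no overlap (difference 2.93, limma adjusted p = 0.473). CYP1A1, an enzyme switched on by the aryl hydrocarbon receptor, spanned -0.63 to 3.11 in the controls and -2.03 to -0.25 in the 3 day 12 arrays with a value (difference -3.10, limma adjusted p = 0.648).

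Some probes that were high on day 12 were also higher in 6.7 Gy animal 2 of day 4 than in the other 15 arrays of days 4 and 7. This array had -1.05 for probe A_01_P009806, -5.45 for A_01_P1713282 and -3.62 for the called TLR9 probe, in each case below all 4 day 12 arrays. The called FAU probe was at -1.43 in this array and at -1.03 in 7.4 Gy animal 2 of day 7, within the day 12 range for the latter. The cause was not tested.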
